A study of Mus musculus with 12 samples.

Results

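Fendrr, Mhrt, Malat1, Neat1, Miat and Tug1 are long non-coding RNAs, transcripts that are not translated into protein. Fendrr and Mhrt lie beside or opposite genes of heart and lateral mesoderm development, and Malat1, Neat1, Miat and Tug1 are broadly known nuclear RNAs. They were taken as the rows of the count table that carry exactly these names, which gave 6 of its 48709 gene intervals. All 6 passed the filter on low counts that left 28846 intervals to be tested. The libraries came from total RNA of the dissected cardiogenic region, the tissue that forms the heart, of mouse embryos at embryonic day 8 (E8), 8.5 (E8.5), 9.5 (E9.5) and 14 (E14), with 3 libraries for each and 12 in all. The labels name no strain, genotype, sex or treatment and do not say whether a library held 1 embryo or several.

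Long non-coding RNAs act in several ways, and several of those ways were worked out on these RNAs. Malat1 gathers in nuclear speckles, bodies rich in splicing factors, and Neat1 is the RNA on which paraspeckles, another kind of nuclear body, are built. Miat binds splicing factors in the nucleus, and a variant region at its human counterpart was linked to myocardial infarction. Fendrr is transcribed away from the forkhead gene Foxf1 and is needed in mouse embryos for heart and body wall development, with reported binding to the Polycomb and Trithorax/MLL complexes. Mhrt (myosin heavy chain associated RNA transcript) is read from the strand opposite Myh7, the gene of beta-myosin heavy chain, and in the adult mouse heart was reported to bind the chromatin remodeller Brg1 (Smarca4). Tug1 is widely transcribed and was first described in the developing retina.

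The total counts of a library lay between 101231014 and 122785175 for E8, between 101202593 and 111404849 for E8.5, between 73056001 and 90620692 for E9.5 and between 56574386 and 97187372 for E14. Levels below are in CPM, the count of a row scaled to the size of its library. The 8 cardiomyocyte markers summed to 15392 to 15948 CPM for E8, 11336 to 20760.5 for E8.5, 9552 to 11597 for E9.5 and 12332 to 15002 for E14, and none of them was at 0 at any stage. E8.5 replicate 3 stood apart from the other libraries. Its 8 markers of visceral endoderm and liver summed to 1641 CPM, beside 148 and 54.2 in E8.5 replicates 1 and 2 and 17.7 to 18.1 at E8. The changes of Fendrr, Mhrt, Malat1 and Miat at E9.5 against E8.5 are given with and without this library. Those of Foxf1, Myh7 and the listed genes are given only with it. Fewer cells of a type and less RNA per cell cannot be told apart in such bulk tissue.

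The 6 RNAs covered a wide span of abundance. Per kilobase of annotated interval, the mean level at E14 was 326 CPM for Malat1, 263 for Mhrt, 11.9 for Tug1, 0.508 for Neat1, 0.021 for Miat and 0.00295 for Fendrr. At E8 it was 145 CPM per kilobase for Malat1, 109 for Mhrt, 12.5 for Tug1, 0.886 for Neat1, 0.0276 for Fendrr and 0.0082 for Miat. Miat and Fendrr thus changed places between the ends of the series, and in both stages the libraries of neighbours in this order did not overlap. At E9.5 Mhrt (162 CPM per kilobase) and Malat1 (128) overlapped between libraries. Introns count toward these lengths: annotated exons cover 11.8% of the Fendrr interval, 21.4% of that of Mhrt, 57.5% of that of Miat, and 98.4% to 100% of those of Tug1, Malat1 and Neat1.

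By edgeR's quasi-likelihood test, with p-values adjusted over all intervals, no member was called between E8 and E8.5, where 1.18% of all tested intervals were. In that comparison Fendrr and Malat1 had an unadjusted p under 0.05, and DESeq2 also called 0 of the 6. Between E8.5 and E9.5, where 37.0% of all intervals were called, 2 members were called: Mhrt rose and Malat1 fell. Between E9.5 and E14 the count was 4 of 6, beside 50.0% of all intervals: Mhrt, Malat1 and Miat rose and Fendrr fell. The same 4 were called, in the same directions, at E14 against E8, where 60.7% of all intervals were called. Over the 4 stages together Fendrr, Mhrt, Malat1 and Miat differed between some stages, beside 72.3% of all intervals, while Neat1 (edgeR adjusted p = 0.0747) and Tug1 (edgeR adjusted p = 0.244) did not pass. The Miat call over all stages was lost when any of 6 of the 12 libraries was left out (E8 replicate 2, E9.5 replicates 1 and 3 and each E14 library; edgeR adjusted p up to 0.121), and Neat1 was called without E9.5 replicate 1 (0.0376) or 3 (0.0194). With only 6 members, these counts lie near the shares of all intervals. Without E8.5 replicate 3 the same numbers of members were called in each comparison.

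**Figure D1:**
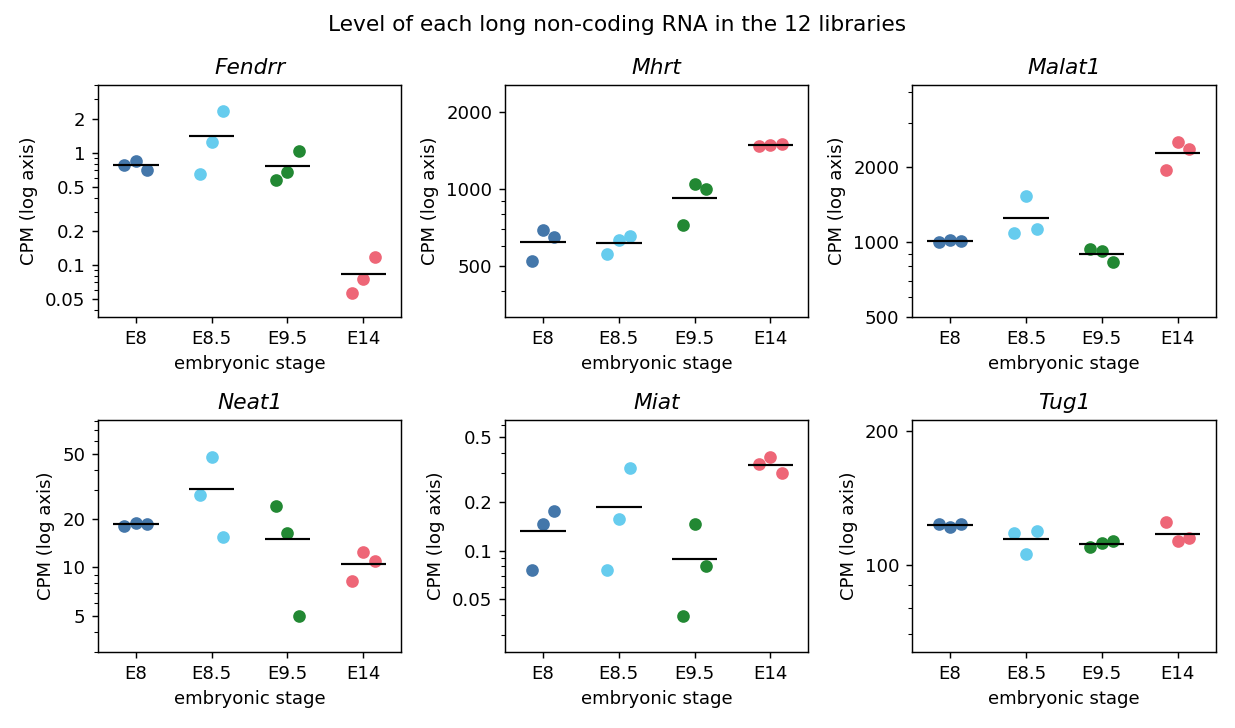
Levels of the 6 long non-coding RNAs. Each point is a library (CPM on a log axis, which differs between panels) and each bar the mean of the 3 libraries of a stage, with stages from E8 to E14 along the horizontal axis. Fendrr at E14 lies between 0.0569 and 0.117 CPM, below all earlier libraries, and Mhrt at E14 lies between 1471 and 1505 CPM, above all earlier ones.

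**Figure D2:**
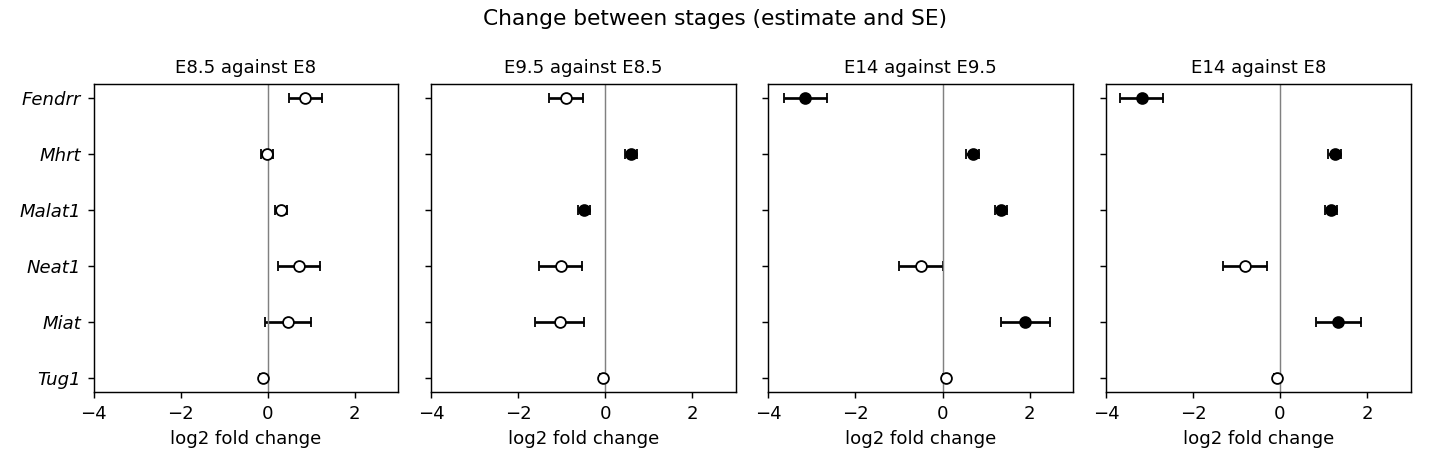
Changes of the 6 RNAs between stages by edgeR, as log2 fold changes of the later over the earlier stage (points) with their SE (bars). Filled points passed an adjusted p of 0.05 over all intervals. No point is filled at E8.5 against E8, and Tug1 lies within 0.11 of 0 in all 4 panels.

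Fendrr (chr8:121054882-121083110, minus strand, GRCm38) was the member with the largest change. It had 82, 99 and 88 counts in the E8 libraries, 77, 134 and 262 at E8.5, 44, 60 and 90 at E9.5 and 3, 7 and 9 at E14. In CPM these were 0.783, 0.85 and 0.702 at E8, 0.654, 1.24 and 2.37 at E8.5, 0.577, 0.679 and 1.03 at E9.5 and 0.0569, 0.0756 and 0.117 at E14. All 3 E14 libraries lay below all 9 earlier ones, while the 3 earlier stages overlapped. Fendrr fell to 0.0832 ± 0.0309 CPM at E14, against 0.761 ± 0.236 at E9.5 (SD, n = 3 each), a log2 fold change of -3.15 ± 0.49 (SE; edgeR adjusted p = 2.32e-04). Against E8 (0.778 ± 0.0739 CPM) the E14 change was -3.18 ± 0.49 (edgeR adjusted p = 1.40e-04). The E14 mean rests on 19 counts in all.

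Among the earlier stages Fendrr varied most at E8.5, where replicate 3 had the highest value of the series. The E8.5 mean of 1.42 ± 0.871 CPM gave a log2 fold change of 0.87 ± 0.39 over E8 (edgeR adjusted p = 0.169), and 0.25 (0.593) without that library. For E9.5 against E8.5 it was -0.90 ± 0.39 (edgeR adjusted p = 0.0921), and -0.28 (0.501) without that library. Leaving out E8.5 replicate 1 instead gave -1.24 (edgeR adjusted p = 0.0136), so that call depended on which E8.5 library was used. The visceral endoderm markers were highest in the same library, and their part in the Fendrr level was not tested.

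The start of Fendrr faces that of Foxf1 (chr8:121084386-121088144, plus strand), a forkhead transcription factor of lateral and visceral mesoderm, and 1276 bases separate the intervals. The 300 bases around the Fendrr start are shown because the pair lies head to head, and the capitals mark GTAAACA, a core motif of forkhead factors (RefSeq, GRCm38.p6, chr8:121083061-121083360, minus strand, written 5′ to 3′ from 250 bases before the start to 50 after it).
Fendrr promoter: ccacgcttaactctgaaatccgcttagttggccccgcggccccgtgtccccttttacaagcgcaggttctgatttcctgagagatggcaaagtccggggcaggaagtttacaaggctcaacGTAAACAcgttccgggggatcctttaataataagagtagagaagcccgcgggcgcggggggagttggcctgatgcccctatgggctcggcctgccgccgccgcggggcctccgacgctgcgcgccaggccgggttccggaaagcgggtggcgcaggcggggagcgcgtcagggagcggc
The motif's first base lies 129 bases before the start. GTAAACA or its reverse complement TGTTTAC occurs in 3.65% of 32851 mouse promoters of this length. GC made up 64.7% of the Fendrr window, which held 31 CG pairs, beside medians of 52.7% and 7 over all promoters. A search of both strands for the core promoter motif known as the TATA box, spelled TATAAA, found no match in this window. The same was so for the box bound by the factor NF-Y, which is spelled CCAAT. Neither the box bound by factors of the Sp1 family, spelled GGGCGG, nor a motif of the cardiac GATA family of factors, spelled AGATAA, was found either. Of the other members with a promoter in the RefSeq table, Miat and Tug1 held GGGCGG, which 35.7% of all promoters hold. The windows of Mhrt and Malat1 held none of the 5 motifs.

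Foxf1 was low in the same E14 libraries. It had 2.32, 2.69 and 2.65 CPM at E8, 1.25, 1.93 and 6.82 at E8.5, 1.19, 1.34 and 1.52 at E9.5 and 0.171, 0.119 and 0.156 at E14. E8.5 replicate 3 was again the highest library, and the E14 libraries lay below all others. Foxf1 fell by 3.20 ± 0.61 on the log2 scale at E14 against E9.5 (SE; edgeR adjusted p = 0.00106) and by 4.12 ± 0.60 at E14 against E8 (1.17e-04). The Fendrr count was 26.5% to 33.7% of that of Foxf1 for E8, 34.7% to 64.1% for E8.5, 48.4% to 67.7% for E9.5 and 33.3% to 75.0% for E14. An exact permutation test of this ratio over the 4 stages did not pass (p = 0.0867, adjusted over 3 ratios 0.0867), and gave 0.0213 without E14 replicate 1. Fendrr also lies whole within Gm20388, a row of 4434882 bases on the other strand that had 3461 times its count, so reads of the locus may be counted in both.

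Of the other genes reported with Fendrr, the forkhead gene Foxc2 and the homeobox gene Nkx2-5 moved with it at E14. In the list of its locus and reported targets 0 of 7 genes rose and 4 fell at E14 against E9.5, with a median log2 fold change of -0.83. Of all intervals 25.4% rose and 24.6% fell in that comparison, with a median of 0.01. Foxc2, a regulator of outflow tract and vessel development, fell to 2.83 CPM at E14, against 8.47 at E9.5 (-1.58 ± 0.22, SE; edgeR adjusted p = 8.87e-05). Nkx2-5, the core homeobox factor of cardiomyocytes, fell to 28.9 CPM at E14, against 72.4 at E9.5 (-1.32 ± 0.13; edgeR adjusted p = 4.66e-06). At E14 against E8 1 of the 7 rose (Gata6, 0.40 ± 0.09) and 5 fell, with a median of -1.20, while of all intervals 31.5% rose and 29.2% fell, with a median of 0.04. Irx3, a homeobox factor, fell at E9.5 against E8.5 (-0.74 ± 0.13), where 18.4% of all intervals rose and 18.5% fell. None of the 7 was called at E8.5 against E8, where 0.891% of all intervals rose and 0.291% fell.

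Some subunits of the chromatin complexes that Fendrr was reported to bind fell at E14. Of 9 listed genes 0 rose and 5 fell at E14 against E9.5 (median -0.20), beside 25.4% and 24.6% of all intervals (median 0.01). Ezh2 (-0.05 ± 0.13), Suz12 (-0.04 ± 0.07), Kmt2a (-0.07 ± 0.19) and Jarid2 (0.13 ± 0.14) did not pass. At E14 against E8 0 rose and 7 fell (median -0.45), beside 31.5% and 29.2% of all intervals (median 0.04). Jarid2, a Polycomb cofactor, changed most and did so early: it fell to 95.9 CPM at E9.5, against 217 at E8.5 (-1.18 ± 0.14, SE; edgeR adjusted p = 1.54e-04). Wdr5, a shared subunit of MLL complexes, fell to 30.6 CPM at E14, against 44.3 at E9.5 (-0.53 ± 0.06; edgeR adjusted p = 2.97e-05), and Eed, a Polycomb core subunit, fell to 23.9 CPM, against 33.9 (-0.50 ± 0.07; 1.24e-04). In the step to E9.5, against E8.5, 0 of the 9 rose and 4 fell, beside 18.4% and 18.5% of all intervals (median -0.08 beside -0.03). At E8.5 against E8 none was called, beside 1.18% of all intervals. The 8 foregut endoderm markers summed to 112 to 118 CPM for E8, 66.6 to 179 for E8.5, 39.6 to 46.0 for E9.5 and 10.5 to 12.2 for E14, none at 0. Krt18 makes up most of this sum, with 84.1 CPM at E8 and 6.48 at E14. Like Fendrr, the sum was lowest at E14. It also fell from E8 to E9.5, where Fendrr changed by -0.03 ± 0.39 (SE; edgeR adjusted p = 0.97). At E14 against E9.5 6 of the 8 fell and 1 rose (Sox17, 0.48 ± 0.14), beside 24.6% and 25.4% of all intervals. Of the 7 lateral plate and visceral mesoderm markers 6 were tested. At E14 against E9.5 4 of them fell, Foxf1 among them, and 1 rose (median -2.01), beside 24.6% and 25.4% of all intervals. Hand1, a transcription factor of heart and lateral mesoderm, fell to 3.12 CPM at E14, against 18.3 at E9.5 (-2.55 ± 0.11, SE; edgeR adjusted p = 1.14e-08), and the signal protein Bmp4 fell to 7.14 CPM, against 19.8 (-1.47 ± 0.09; 1.16e-07). Osr1 went the other way and rose to 3.48 CPM, against 1.42 (1.30 ± 0.14; edgeR adjusted p = 1.05e-05). At E14 against E8 4 fell and 2 rose (Osr1, 1.64 ± 0.14, and Gata6, 0.40 ± 0.09), beside 29.2% and 31.5% of all intervals. The sum of this list lay between 117 and 143 CPM in all libraries, since Gata6 makes up most of it, with 107 CPM at E14 and 92.2 at E9.5. The part of either cell type in the Fendrr result was not tested.

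Mhrt (chr14:54968678-54974349, plus strand) rose at both later steps. It had 523.0, 690.3 and 648.0 CPM at E8, 557.0, 633.0 and 653.0 at E8.5, 722.0, 1044 and 999.0 at E9.5 and 1471, 1492 and 1505 at E14. E8 and E8.5 overlapped, E9.5 lay above both, and E14 lay above E9.5. Mhrt rose to 922 ± 174 CPM at E9.5, against 614 ± 50.7 at E8.5 (SD, n = 3 each), a log2 fold change of 0.59 ± 0.14 (SE; edgeR adjusted p = 0.00841). At E14 it rose to 1489 ± 17.2 CPM, 0.69 ± 0.14 over E9.5 (edgeR adjusted p = 0.00173) and 1.26 ± 0.15 over E8 (1.27e-05). At E8.5 against E8 the change was -0.02 ± 0.14 (edgeR adjusted p = 0.956). Without E8.5 replicate 3 the change at E9.5 against E8.5 was 0.66 (edgeR adjusted p = 0.0054).

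How far this row is Mhrt and how far Myh7 is limited by their positions. Of the 5672 bases of the Mhrt interval 3662 lie within the Myh7 interval (chr14:54970688-54994634, minus strand). Of the 828 exonic bases of its 5-exon transcript 463, or 55.9%, lie opposite exons of the main Myh7 transcript, in 4 of the 5 exons. Its exons 2, 3 and 4 are shown with those bases in capitals (GENCODE M21, GRCm38, plus strand, 5′ to 3′), since they are the antisense of Myh7 coding sequence in Myh7 exons 40, 38 and 36.
Mhrt exon 2, chr14:54971410-54971490: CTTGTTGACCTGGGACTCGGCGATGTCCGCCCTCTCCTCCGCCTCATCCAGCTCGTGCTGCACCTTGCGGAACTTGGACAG
Mhrt exon 3, chr14:54972765-54972912: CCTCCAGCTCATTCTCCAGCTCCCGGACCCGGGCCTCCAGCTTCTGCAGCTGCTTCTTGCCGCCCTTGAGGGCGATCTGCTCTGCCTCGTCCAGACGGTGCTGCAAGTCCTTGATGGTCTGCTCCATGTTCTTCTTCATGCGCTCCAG
Mhrt exon 4, chr14:54973461-54973526: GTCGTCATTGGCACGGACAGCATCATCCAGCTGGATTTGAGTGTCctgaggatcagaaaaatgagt
Read on the other strand, exons 2 and 3 are the letters of Myh7 in all 81 and all 148 bases. The main transcript of Myh6, the neighbouring alpha-myosin heavy chain gene, has the same 81 and 148 bases, and it matches 41 of the 45 capital bases of exon 4 (91.1%). A read that falls within exon 2 or 3 therefore carries no base that separates Myh7 from Myh6, and only its strand would separate Mhrt from either.

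**Figure D3:**
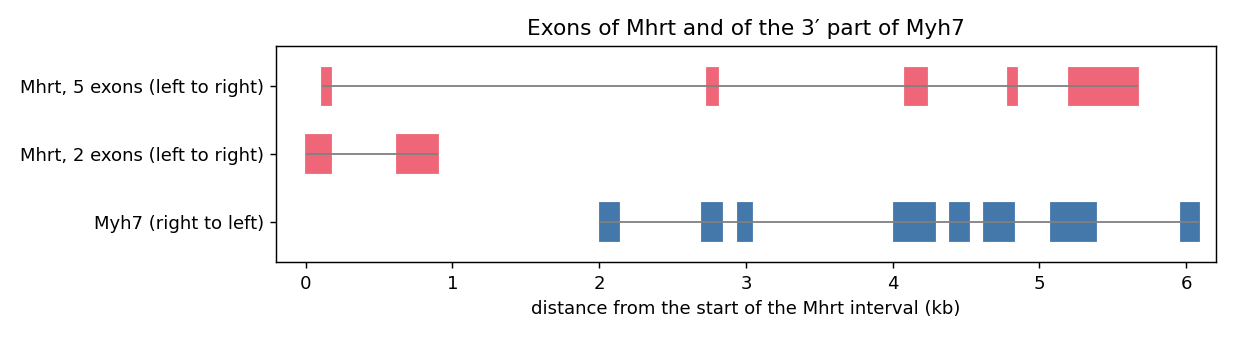
Exons (boxes) of both Mhrt transcripts, read left to right, above the exons at the 3′ end of Myh7, read right to left, drawn to scale as distance in kb from the start of the Mhrt interval. Exons of the 5-exon Mhrt transcript overlap Myh7 exons in 4 of 5 cases, and both exons of the shorter transcript lie outside Myh7.

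The Mhrt count followed that of Myh7. It was 20.5%, 21.6% and 21.3% of the Myh7 count in the E8 libraries, 18.0%, 20.4% and 21.7% at E8.5, 24.0%, 23.9% and 23.8% at E9.5 and 21%, 20.3% and 20.8% at E14. By length, 1273 of 6135 exonic bases of Myh7, or 20.7%, in 7 of its 41 exons, lie inside the Mhrt interval. All libraries thus lay close to the share that the Myh7 exons under Mhrt have in Myh7. That share applies only if reads of both strands were counted over the whole Mhrt interval, with few from its 2010 bases outside Myh7. Of the 6135 bases only 463 face exons of the 5-exon Mhrt transcript, so counting over exons would give another share. The ratio was not constant: the E9.5 libraries lay above all others (exact permutation test over the 4 stages, p = 0.0108, adjusted over 3 ratios 0.0266). Myh7 rose to 7205 ± 173 CPM at E14, against 3854 ± 738 at E9.5 (SD, n = 3 each), a log2 fold change of 0.90 ± 0.14 (SE; edgeR adjusted p = 2.23e-04), and was 1.30 ± 0.14 above E8, against 1.26 ± 0.15 for Mhrt. Where Mhrt was called at E9.5 against E8.5, Myh7 changed by 0.33 ± 0.14 (edgeR adjusted p = 0.0847). Since the strand setting of the counting is not given, Mhrt reads and Myh7 reads in this interval cannot be told apart, and the Mhrt values above are values of the row, not of the antisense RNA alone.

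Short rows inside the 2 genes did not keep a fixed share. Gm29015, a row of 331 bases on the Mhrt strand with no base in an exon of the 5-exon Mhrt transcript and 184 in Myh7 exons, held 19.2%, 20.4% and 19.7% of the Mhrt count at E8, 16.5%, 19% and 19.6% at E8.5, 25.9%, 25.8% and 25.8% at E9.5 and 29.3%, 31.2% and 30.4% at E14. The shares at E9.5 and E14 lay above all at E8 and E8.5 (exact permutation test, p = 1.30e-04, adjusted over 15 nested rows 0.00195), though the row is 5.84% of the Mhrt interval. As a share of Myh7, Gm29015 held 6.15% to 6.33% at E9.5 and E14, against 2.97% to 4.40% at E8 and E8.5 (exact permutation test, adjusted p = 0.0056). Taking its counts from those of Mhrt assumes that each read of Gm29015 was also counted for Mhrt, which the sources do not state. So reduced, the Mhrt row came to 16.6% to 17.2% of Myh7 for E8, 15% to 17.4% for E8.5, 17.7% to 17.8% for E9.5 and 14% to 14.8% for E14 (exact permutation p = 0.00221). Under that assumption E14 was the lowest stage, whereas in the full row E14 overlapped E8.

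Rows that lie in Myh7 introns moved the same way. Mir208b, the microRNA precursor within Myh7, held 1.43% to 1.79% of the Myh7 count at E9.5 and E14, against 1.18% to 1.25% at E8 and E8.5 (exact permutation test, adjusted p = 0.00195). Gm17428, 93 bases on the other strand with no base in a Myh7 exon, held 2.32% to 2.56% at the later stages, against 0.836% to 0.926% at the earlier ones (exact permutation test, adjusted p = 0.0166). Mir208a, the related microRNA precursor within Myh6, held 1.91% to 3.03% of the Myh6 count at the later stages, against 0.896% to 1.30% at the earlier ones (0.00325). All 3 of these short rows thus took a larger share of their myosin gene at E9.5 and E14 than at E8 and E8.5. Myh6 itself had 3396 ± 115 CPM at E14 and 3016 ± 299 at E8 (SD, n = 3 each), a change of 0.17 ± 0.11 that did not pass (edgeR adjusted p = 0.178).

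**Figure D4:**
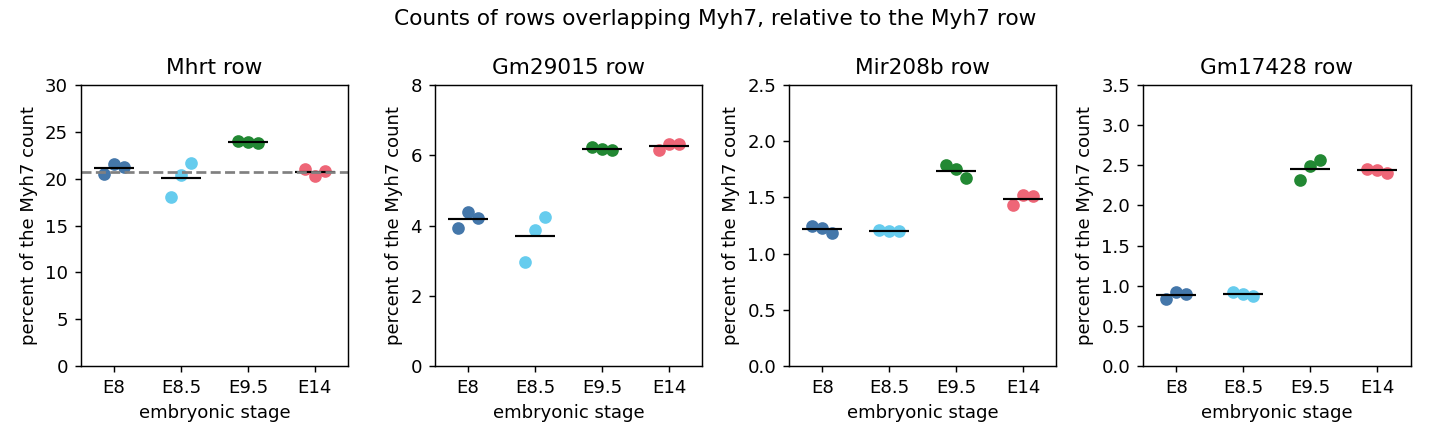
Counts of 4 rows that overlap Myh7, as percent of the Myh7 count in the same library (points) with stage means (bars). The dashed line in the Mhrt panel is the 20.7% of Myh7 exonic bases that lie inside the Mhrt interval. Mhrt peaks at E9.5, between 23.8% and 24.0%, while Gm29015, Mir208b and Gm17428 are higher in all E9.5 and E14 libraries than in all earlier ones.

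Among the 7 partners and targets reported for Mhrt, 2 rose and 2 fell at E14 against E9.5, with a median of -0.04, counts near the 25.4% and 24.6% of all intervals. Hdac9, a class II histone deacetylase of muscle, rose to 153 CPM at E14, against 60.9 at E9.5 (1.33 ± 0.13, SE; edgeR adjusted p = 7.07e-06), and Myh7 is the other that rose. Parp1, a poly(ADP-ribose) polymerase, fell to 107 CPM, against 191 (-0.84 ± 0.10; edgeR adjusted p = 2.78e-05), and Smarca4, the Brg1 ATPase that Mhrt was reported to bind, fell to 143 CPM, against 219 (-0.62 ± 0.07; 2.06e-05). At E14 against E8 2 rose and 2 fell (median 0.03), beside 31.5% and 29.2% of all intervals. At E9.5 against E8.5 only Hdac2 was called, higher by 0.44 ± 0.10, where 37.0% of all intervals were. None was called at E8.5 against E8.

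Malat1 (chr19:5795690-5802672, minus strand) was highest at E14. It had 997.0, 1022 and 1011 CPM at E8, 1084, 1532 and 1128 at E8.5, 940.2, 918.0 and 830.4 at E9.5 and 1950.3, 2514 and 2365 at E14. Every E14 library lay above every earlier one, and every E9.5 library below every E8 and E8.5 one. Malat1 rose to 2277 ± 292 CPM at E14, against 896 ± 58.0 at E9.5 (SD, n = 3 each), a log2 fold change of 1.34 ± 0.14 (SE; edgeR adjusted p = 9.72e-06). At E14 against E8 the change was 1.17 ± 0.14 (edgeR adjusted p = 1.72e-05).

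The fall of Malat1 at E9.5 was less firm. Its mean at E8.5 was 1248 ± 247 CPM, and the change at E9.5 against E8.5 was -0.48 ± 0.14 (SE; edgeR adjusted p = 0.019). Without E8.5 replicate 3 this change was -0.52 (edgeR adjusted p = 0.0121). The call was lost when E8.5 replicate 2 (-0.30, edgeR adjusted p = 0.0608), E9.5 replicate 2 (-0.49, 0.0509) or E9.5 replicate 3 (-0.42, 0.0785) was left out, and when only E8.5 and E9.5 were fitted (-0.45, 0.0877). At E9.5 against E8 it was -0.17 ± 0.14 (edgeR adjusted p = 0.403). At E8.5 against E8 it was 0.30 ± 0.14 (edgeR adjusted p = 0.175), although the E8.5 libraries all lay above those of E8, as was so for 13.0% of all intervals.

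Annotated exons together cover the whole Malat1 interval, and 3 short rows lie within it. Gm20417, which covers 14.1% of it on the opposite strand, held 16.8% to 19.4% of its count, Gm37376, also opposite, 3.38% to 5.63%, and Gm27694, on the same strand, 2.25% to 3.89%. None of these shares differed between stages (exact permutation tests, adjusted p = 0.541, 0.541 and 0.4). Rows on the opposite strand thus held counts in near proportion to Malat1, and for this locus too the strands cannot be told apart.

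Most transcripts of nuclear speckle proteins fell at E14, where Malat1 rose. Of 16 listed genes of speckle and SR splicing proteins 0 rose, 12 fell and 4 did not pass at E14 against E9.5. Of all intervals 25.4% rose and 24.6% fell there, and the median log2 fold change was -0.51 beside 0.01 over all intervals. At E14 against E8 0 rose and 13 fell, beside 31.5% and 29.2% of all intervals (median -0.52 beside 0.04). The SR splicing factors Srsf7, Srsf2 and Srsf1 fell most. Srsf7 fell to 84.3 CPM at E14, against 155 at E9.5 (-0.88 ± 0.12, SE; edgeR adjusted p = 8.55e-05). Srsf2, which is held in speckles and is overlapped by the row of Mettl23, fell to 112 CPM, against 198 (-0.83 ± 0.10; edgeR adjusted p = 3.34e-05), and Srsf1 fell to 201 CPM, against 337 (-0.75 ± 0.11; 1.83e-04). Son, a scaffold protein of speckles, had 304 CPM at E14 and 306 at E9.5. Srsf5 rose at E9.5 against E8.5 (0.61 ± 0.17) and Srrm2 (-0.59 ± 0.18) and Srrm1 (-0.32 ± 0.09) fell, in the step where Malat1 fell too. There 13 of the 16 did not pass, while 18.4% of all intervals rose and 18.5% fell. At E8.5 against E8 none of the 16 was called. These genes were listed with earlier results of the same libraries known, so their direction is a description.

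Neat1 (chr19:5824708-5845478, minus strand) lies 22036 bases from Malat1 on the same strand and varied widely between libraries at E8.5 and E9.5. It had 18.1, 18.7 and 18.4 CPM at E8, 27.9, 47.8 and 15.4 at E8.5, 23.9, 16.2 and 5.0 at E9.5 and 8.26, 12.4 and 11 at E14. E8 was tight, E8.5 and E9.5 spread over several-fold ranges, and all E14 libraries lay below all of E8 and E8.5 but within the range of E9.5. The means were 18.4 ± 0.318 CPM for E8, 30.4 ± 16.4 for E8.5, 15 ± 9.49 for E9.5 and 10.5 ± 2.12 for E14 (SD, n = 3 each). None of the changes between neighbouring stages passed by edgeR: 0.72 ± 0.49 (SE) at E8.5 against E8 (adjusted p = 0.358), -1.02 ± 0.49 at E9.5 against E8.5 (0.128) and -0.50 ± 0.50 at E14 against E9.5 (0.431). With 1 library left out they ran from 0.23 (without E8.5 replicate 2) to 1.01 at E8.5 against E8, from -1.52 (without E9.5 replicate 1) to -0.53 (without E8.5 replicate 2) at E9.5 against E8.5 and from -0.92 (without E9.5 replicate 3) to -0.00 (without E9.5 replicate 1) at E14 against E9.5, and none was called.

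Over longer spans the fall of Neat1 depended on the fit. At E14 against E8 it was -0.80 ± 0.50 (SE; edgeR adjusted p = 0.186) in the model of all libraries, in which all stages share a spread, and -0.82 ± 0.13 (edgeR adjusted p = 8.02e-04) when only E8 and E14 were fitted. At E14 against E8.5 Neat1 fell by 1.52 ± 0.50 on the log2 scale (edgeR adjusted p = 0.0223), in a comparison where 59.5% of all intervals were called. That call was lost without E8.5 replicate 2, the library with 47.8 CPM (-1.04, edgeR adjusted p = 0.106), without E14 replicate 1 (-1.38, 0.0755), without E14 replicate 3 (-1.54, 0.0575) and with no filter on low counts (-1.53, 0.0659).

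Neat1 and Malat1 moved apart. The Neat1 count was 1.81% to 1.83% of that of Malat1 for E8, 1.37% to 3.12% for E8.5, 0.602% to 2.54% for E9.5 and 0.423% to 0.495% for E14. All 3 E14 libraries lay below the other 9, and the ratio differed between stages (exact permutation test, p = 0.0177, adjusted over 3 ratios 0.0266). Since both counts come from the same library, this ratio does not depend on the scaling of library sizes.

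Neat1 is made as a short and a long transcript from a shared start, and only the long one builds paraspeckles. The table has 3 short rows near that start, Gm28006, Gm27505 and Gm27533, all on its strand and within 1192 bases of it. Gm27533, the one with most counts, is shown to place the region (GENCODE M21, GRCm38, chr19:5844286-5844437, minus strand, 5′ to 3′, with no part marked).
Gm27533: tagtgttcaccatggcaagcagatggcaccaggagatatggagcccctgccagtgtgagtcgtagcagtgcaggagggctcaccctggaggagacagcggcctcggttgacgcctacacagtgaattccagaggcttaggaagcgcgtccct
The 3 rows together cover 1.85% of the Neat1 interval and held 4.34% to 8.05% of its count. A test of this share over the 4 stages did not pass (exact permutation test, p = 0.662), with 25 to 299 counts in the 3 rows per library.

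**Figure D5:**
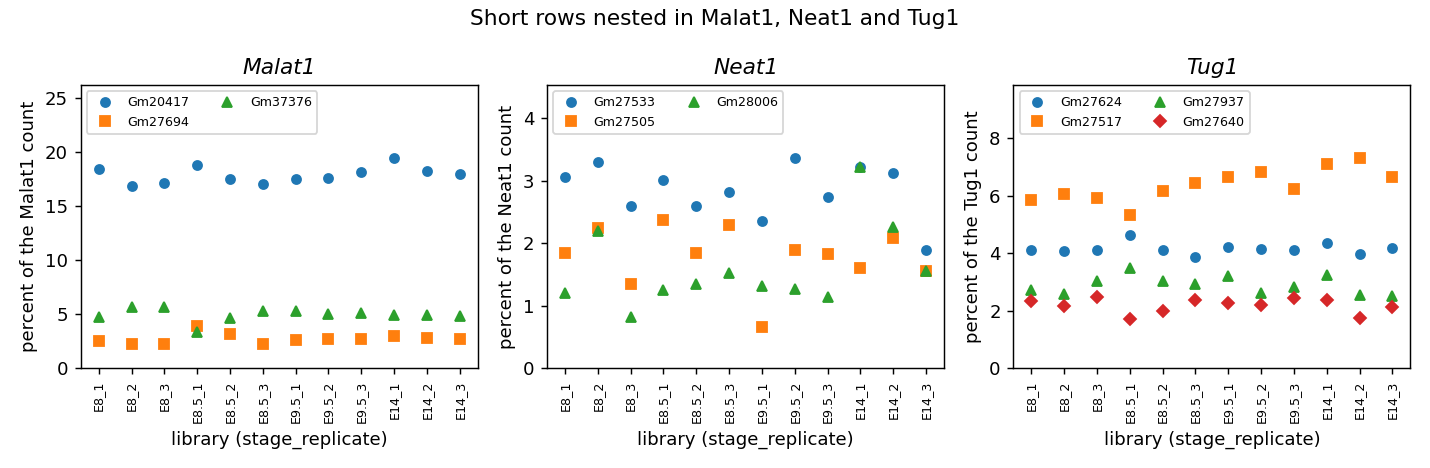
Counts of short rows that lie within Malat1 (left), Neat1 (middle) and Tug1 (right), as percent of the count of the enclosing gene, for each of the 12 libraries from E8 to E14. Each symbol is a row. Gm20417 stays between 16.8% and 19.4% of Malat1 in all libraries, and the rows in Neat1 scatter without an order by stage.

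Most transcripts of paraspeckle proteins fell at E14. Of 14 listed genes of paraspeckle proteins and factors of Neat1 isoform choice 0 rose and 10 fell at E14 against E9.5. Of all intervals 25.4% rose and 24.6% fell there (median -0.41 beside 0.01 over all intervals). At E14 against E8 0 rose and 8 fell, beside 31.5% and 29.2% of all intervals (median -0.35 beside 0.04). Dazap1, an RNA-binding protein of paraspeckles, fell to 47.8 CPM at E14, against 74.9 at E9.5 (-0.65 ± 0.07, SE; edgeR adjusted p = 8.70e-06). Rbm14, needed for paraspeckle assembly and overlapped by the row Gm21992 with 4.26 times its count, fell to 26.9 CPM, against 38.9 (-0.53 ± 0.07; edgeR adjusted p = 8.89e-05). Nono and Sfpq, core proteins of the body, fell to 214 and 201 CPM at E14, against 291 and 265 at E9.5 (-0.44 ± 0.10 and -0.40 ± 0.10). At E9.5 against E8.5 4 of the 14 rose, among them Nudt21 (0.45 ± 0.11), Hnrnpk (0.42 ± 0.12) and Nono (0.36 ± 0.10), and 3 fell, among them Taf15 (-0.69 ± 0.15) and Pspc1 (-0.38 ± 0.12). Of all intervals 18.4% rose and 18.5% fell in that step. At E8.5 against E8 none was called.

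Miat (chr5:112213228-112229395, minus strand) was near the floor of detection. It had 8, 17 and 22 counts at E8, 9, 17 and 36 at E8.5, 3, 13 and 7 at E9.5 and 18, 35 and 23 at E14. In CPM these were 0.0764, 0.146 and 0.175 at E8, 0.0765, 0.157 and 0.325 at E8.5, 0.0394, 0.147 and 0.0799 at E9.5 and 0.342, 0.378 and 0.300 at E14. The E14 libraries lay above all of E8 and E9.5 and overlapped E8.5 through its replicate 3. Miat rose to 0.340 ± 0.0393 CPM at E14, against 0.0888 ± 0.0545 at E9.5 (SD, n = 3 each), a log2 fold change of 1.90 ± 0.56 (SE; edgeR adjusted p = 0.014), and without E9.5 replicate 1, the library with 3 counts, it was 1.57 (0.0511).

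The rise of Miat over the whole span was weaker. At E14 against E8 it was 1.34 ± 0.52 (SE; edgeR adjusted p = 0.0427), and it was lost when any of 8 of the 12 libraries was left out: each E8 and each E14 library, E8.5 replicate 2 and E9.5 replicate 3 (edgeR adjusted p up to 0.136). At E8.5 against E8 it was 0.47 ± 0.53 (edgeR adjusted p = 0.589) and, without E8.5 replicate 3, -0.24 (0.768). For E9.5 against E8.5 it was -1.04 ± 0.56 (edgeR adjusted p = 0.17) and, without the same library, -0.33 (0.654). Gm26953, on the opposite strand, covers 86.2% of Miat and had 0.731 times its count, so part of the reads may be counted for both. Of the 3 splicing factors listed as partners of Miat, Sf1 and Celf1 were found by name. Both fell at E14 against E9.5, where 24.6% of all intervals fell. Sf1 fell to 67.3 CPM, against 109 (-0.70 ± 0.08, SE; edgeR adjusted p = 1.79e-05), and Celf1 to 196 CPM, against 242 (-0.31 ± 0.08; 0.00547). Both also fell at E14 against E8 (-0.79 ± 0.08 and -0.35 ± 0.08), where 29.2% of all intervals fell. Neither was called at E9.5 against E8.5 or at E8.5 against E8, where 37.0% and 1.18% of all intervals were.

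Tug1 (chr11:3639785-3649673, minus strand) was the steadiest of the 6. It had 124, 122 and 124 CPM at E8, 118, 106 and 119 at E8.5, 109.6, 112 and 113 at E9.5 and 125, 113 and 115 at E14. The means were 123 ± 1.14 CPM for E8, 114 ± 7.30 for E8.5, 111 ± 1.52 for E9.5 and 118 ± 6.45 for E14 (SD, n = 3 each), so the stages lay within a narrow band and E8 lay above both E8.5 and E9.5. No comparison passed by edgeR: -0.11 ± 0.07 (SE) at E8.5 against E8 (adjusted p = 0.312), -0.04 ± 0.07 at E9.5 against E8.5 (0.686), 0.08 ± 0.07 at E14 against E9.5 (0.368) and -0.07 ± 0.07 at E14 against E8 (0.392). With an adjustment of each library for gene span, E9.5 against E8.5 gave -0.19 ± 0.05 (edgeR adjusted p = 0.0113) and E14 against E9.5 0.17 ± 0.05 (0.0143), a setting that shifted the median of all intervals by -0.13 and 0.09. Of 4 short rows inside Tug1, Gm27517 held 5.33% to 7.30% of its count (exact permutation p = 0.0223, adjusted 0.0557). Morc2a, on the opposite strand, overlaps the Tug1 start by 180 bases and had 0.545 times its count.

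Other named long non-coding RNAs mostly fell late. Of a list of 37, 31 were found by name and 28 were tested. At E14 against E9.5 2 rose and 17 fell, beside 25.4% and 24.6% of all intervals, with a median log2 fold change of -0.50 beside 0.01. At E14 against E8 4 rose and 18 fell, beside 31.5% and 29.2% of all intervals (median -0.58 beside 0.04). Hotairm1, a transcript of the HoxA cluster, fell to 0.642 CPM at E14, against 1.52 at E9.5 (-1.22 ± 0.26, SE; edgeR adjusted p = 0.00228). Gas5, a host of small nucleolar RNAs, fell to 67.3 CPM, against 135 (-1.01 ± 0.14; edgeR adjusted p = 8.58e-05), and Carmn, a smooth muscle and cardiac RNA, to 19.3 CPM, against 34.8 (-0.85 ± 0.17; 0.00151). The 2 that rose were the imprinted Peg13 (0.86 ± 0.10), which the row of Trappc9 overlaps with 10.5 times its count, and Sox2ot (0.74 ± 0.20), which overlaps Sox2. At E14 against E8 Dnm3os, the host of mesenchymal microRNAs, which the row of Dnm3 overlaps with 2.76 times its count, rose to 12.7 CPM, against 0.173 (6.19 ± 0.82; edgeR adjusted p = 7.10e-05), and the 7 epicardium and fibroblast markers summed to 1775 to 1828 CPM at E14, against 47.6 to 51.4 at E8, none at 0. The part of those cells in the result was not tested.

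At E9.5 against E8.5 6 of the 28 rose and 7 fell, near the 18.4% and 18.5% of all intervals, and none was called at E8.5 against E8. Dnm3os rose to 4.67 CPM at E9.5, against 0.375 at E8.5 (3.63 ± 0.73, SE; edgeR adjusted p = 0.00363), and H19, the maternally expressed imprinted RNA, to 3798 CPM, against 2230 (0.77 ± 0.16; 0.00303). Sox2ot fell to 0.900 CPM, against 2.16 (-1.26 ± 0.20; edgeR adjusted p = 7.73e-04), and the imprinted antisense RNAs Airn (-0.76 ± 0.24) and Kcnq1ot1 (-0.71 ± 0.19) fell as well. The rows of Igf2r, with 3.0 times the Airn count, and Kcnq1, with 1.09 times the Kcnq1ot1 count, overlap them on the other strand, so these values may hold reads of both.

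The genes whose log2 CPM followed each RNA most closely over the 12 libraries are given as a description, among 9132 to 9134 genes of at least 10 CPM on average. Rows that overlap the RNA were left out of this ranking. Also left out were genes with Rik, Gm-number, LOC or similar names, genes encoded in mitochondria, and ribosomal protein and histone genes. Pearson's r was 0.99 for Fendrr with Sfxn1, a mitochondrial serine transporter, and 0.98 with the imprinted Peg10 and with Cep192. For Mhrt it was 0.98 with Mir208b, the anion exchanger Slc4a3 and Osbpl2. Mir208b lies within Myh7, 1351 bases from the Mhrt interval, so that match is of the same locus. For Malat1 it was 0.99 with Spata1 and 0.98 with Stard9 and Sobp. Those for Neat1 were lower, at 0.93 with Dgki, 0.91 with the sarcomere-associated Myo18b and 0.89 with Alpk3, as were those for Miat, at 0.91 with Rnu12 and 0.90 with Ccdc186 and Kdm5a, and Tug1 had 0.97 with Cggbp1, 0.92 with Vdac3-ps1 and 0.90 with Pnrc1. The libraries fall into 4 stages, so genes that share a stage profile share these values.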

How the data were processed

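Total RNA of dissected cardiogenic regions was sequenced, 4 stages of 3 libraries. Per the labels' protocols, tissue was put in TriZol and libraries followed a standard Illumina preparation. The table deposited by the authors holds whole-number read counts per gene interval and library, not normalised. The submitters' processing notes name STAR 2.5.0 and Cufflinks 2.2.1 and mouse and human builds, without roles. Not given in the sources used here are the counter, its strand setting, its treatment of multi-mapping reads and its annotation. Whether libraries of a stage came from separate embryos or litters is not stated, so p-values reflect the spread of these libraries alone, which may be technical. It exceeded counting noise, with a mean chi-square per gene of 8.46 to 203 between replicates.

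In edgeR 4.0.16 (R 4.3.3) the filter filterByExpr left 28846 of 48709 intervals and TMM factors were 0.913 to 1.07. A robust quasi-likelihood model (glmQLFit, common dispersion 0.0362) of all 12 libraries had stage as its only term. Calls had a Benjamini-Hochberg adjusted p under 0.05 over all intervals, SE belong to log2 fold changes from edgeR, and CPM use TMM-scaled sizes. The model was tested on simulated data. Ratios of 2 counts (0.5 added) were compared over stages by an exact permutation test of a one-way F. It ran over 15400 partitions of the libraries, and its smallest possible p is 6.5e-05. The p is the share of partitions with an F at least as large as that observed, so differences in any direction count. Intervals were set beside GENCODE M21 (GRCm38), with 42778 identical, 5649 matched by symbol and overlap and 282 not matched. Promoters are from RefSeq (GRCm38.p6), where 5 of 6 members matched. Alternatives were RLE and upper-quartile factors, no filter and a mean of at least 1 CPM, DESeq2 1.42.0, a replicate block, the compared stages alone, small structural RNAs or globin genes left out, an adjustment for gene span and each library left out. Comparisons of E9.5 with E8 and E14 with E8.5, the tests of nested rows and the Mhrt count without Gm29015 were added after seeing the data. The text names, by rule, the members, rows that overlap or neighbour them and the 3 most correlated genes per member. It also names, by rule, up to 3 called genes per list and direction. Son, Gata6, Hdac2 and Krt18 were added after their values were seen. Some listed genes that the rule names are not reported here. Members and lists were chosen with earlier results of these data known. Tables and figures were made in Python 3.11 (matplotlib 3.10.9, scipy 1.17.1, numpy 2.4.6, pandas 2.3.3).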

Additional observations from a re-analysis of the deposited data

How the results depend on the processing

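The calls of Fendrr, Mhrt and Malat1 at E14 against E9.5 and against E8 kept direction and significance in all alternatives in which they were tested. The setting of a mean of at least 1 CPM leaves Fendrr and Miat out, so that 2 members were called (4 otherwise) in each of these comparisons and over all stages. Upper-quartile factors gave 0.01 and the adjustment for gene span 0.11 for Mhrt at E8.5 against E8. In fits of the compared stages alone Malat1 at E9.5 against E8.5 was -0.45 and not called, which left 1 member, and Neat1 at E14 against E8 was -0.82 and called. The span adjustment called Tug1 at E9.5 against E8.5 (-0.19) and E14 against E9.5 (0.17) and gave -0.03 at E14 against E8.5. Miat at E14 against E8 was not called without a filter (1.31) or by DESeq2 (1.32). The causes were not tested.

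Over all intervals, the 341 calls at E8.5 against E8 became 190 without a filter, 1687 at a mean of at least 1 CPM, 4300 with DESeq2, 9 in the stages alone, 1139 without small structural RNAs and 172 with the span adjustment, and the 10659 at E9.5 against E8.5 became 6099 in the stages alone. Leaving out each library gave 0 to 8865 calls at E8.5 against E8, the most without E8.5 replicate 3 and none without E8 replicate 3, and 7044 to 13015 at E9.5 against E8.5, the fewest without E9.5 replicate 3. No member was called at E8.5 against E8 in any of these.

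With 1 library left out, the log2 fold changes at E8.5 against E8 ran from -0.13 to 0.07 for Mhrt and -0.24 to 0.85 for Miat. At E9.5 against E8.5 they ran from -1.24 to -0.28 for Fendrr, -0.57 to -0.30 for Malat1 and -0.09 to 0.02 for Tug1, with 1 to 3 members called. Miat ran from 1.57 to 2.46 at E14 against E9.5 and from 1.07 to 1.59 at E14 against E8. At E9.5 against E8 Fendrr ran from -0.31 to 0.13 and Neat1 from -0.80 to 0.12, and at E14 against E8.5 Tug1 from -0.02 to 0.07. The p of the Fendrr to Foxf1 ratio ran from 0.0213 to 0.237. Taking the member's count from its partner's was not run, since no member lies within its partner. Over stage means in place of libraries the correlations named were at least 0.95.

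The replicate numbers did not pair the libraries: deviations of libraries with the same number correlated at -0.08 to 0.13. With the replicate number as a block 3 intervals were called at E8.5 against E8, and no member's call changed. Fendrr at E14 (19 counts) and Miat (23 to 76 counts per stage) are limited by depth.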
